A study of Mus musculus with 9 samples.

Results

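Phagocytes of the mouse peritoneal wall that carried the red Ccr2 reporter (CCR2-RFP cells) were set against phagocytes that carried neither reporter (double-negative cells). The comparison used the 6 libraries whose column headings name these populations, 3 of each, out of 9 in the series. Every mouse was Cx3cr1gfp/+ Ccr2rfp/+, the first cross of a pair of reporter strains. All cells compared were therefore heterozygous for a reporter insertion at both receptor genes. Mice were given 50 µg of dextran coupled to Cascade Blue intravenously 1 day before collection and were perfused, and the wall was digested for 20 min with Liberase TL in the presence of Z-VAD-FMK, a caspase inhibitor. From CD11b+ Ly6G- cells, the double-negative gate took dextran-positive, MHC class II-negative cells without Ccr2 or Cx3cr1 reporter signal. These made up 85 to 90% of the CD11b+ Ly6G- cells and are labelled as most of the sessile resident macrophages. The CCR2-RFP gate took MHC class II-positive, Ccr2-positive, Cx3cr1-negative cells, 10 to 15% of CD11b+ Ly6G- cells, labelled as migratory tissue monocytes. The labels give dextran as part of the double-negative gate only, and they give no age or sex of the mice. The third population, CX3CR1-GFP cells, was MHC class II-positive and Cx3cr1-positive and enters below only as a reference level.

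Resident tissue macrophages stay in place for long periods, clear dying cells and debris through scavenger receptors and lysosomes, recycle iron and make complement components. Their identity is held by transcription factors of the MAF and MITF families and by signalling through the CSF1 receptor. Monocytes enter tissue from blood through CCR2, move by actin remodelling and integrins, and can take on macrophage or dendritic cell features there, including MHC class II. Cells of this second kind are known as a source of interleukin 1 and other early inflammatory mediators.

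Each population had 3 sorted samples, with the sort labels 1, 2A and 2B, and p-values measure only the spread between these samples. Values are TPM, a length-corrected transcript abundance, and 3 values in a row are those of sorts 1, 2A and 2B in that order. Where a pair of such rows is given, CCR2-RFP cells come first. Differences are on log2(TPM + 1), CCR2-RFP minus double-negative, with their standard error, which understates the change of genes near 0. Sequencing depth is unknown, as TPM keeps no read counts. Ccr2 itself was at 95.4, 111 and 115 TPM in CCR2-RFP and 2.12, 1.65 and 4.62 TPM in double-negative libraries, as the headings state, while the description field names another population for 6 of the 9 samples. The row of a single lectin gene, Siglece, took 29.0 to 34.7% of the listed TPM in the 6 libraries. The annotation was not given, and whether this row holds Siglece mRNA alone was not tested. Its level is therefore not read as expression of the gene. The listed symbols do not add up to the full TPM of any library, and what the rest belongs to is not known. Skeletal muscle mRNA set one library apart: 10 muscle markers summed to 1086 TPM in CCR2-RFP 2A, 49.7 and 45.9 TPM in the other CCR2-RFP libraries and 291 to 383 TPM in double-negative libraries.

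Marker genes of the labelled cell types were set side by side. Their lists were chosen with earlier results of these data known, so their directions are no check of the labels. Of 15 resident macrophage markers 13 were lower in CCR2-RFP cells and none was higher, and their summed level was 1296, 989 and 1113 TPM against 3008, 2862 and 2707 TPM. Lyve1 and Cd68 missed the threshold (adjusted p = 0.0758 and 0.0946), which they passed when sorts were blocked (adjusted p = 0.0399 and 0.0384 with the block). Among 14 monocyte markers 9 could be tested, of which 5 were higher (S100a4, Fn1, S100a6, Itgal and Lyz2) and F13a1 was lower. The markers that define circulating inflammatory monocytes were near 0 in CCR2-RFP libraries. Ly6c2 was at 1.04, 0 and 0.0778 TPM there, and Vcan, Chil3 and Hp did not exceed 0.76 TPM. So CCR2-RFP cells carried Ccr2 and several monocyte genes but little of the transcripts that define circulating inflammatory monocytes. Of 13 dendritic cell markers tested, 9 were higher in CCR2-RFP cells and Irf8 was lower, with a summed level of 286, 337 and 288 TPM against 108, 146 and 94.4 TPM. Zbtb46, a factor that marks conventional dendritic cells, was at 1.57, 2.14 and 2.496 TPM against 2.35, 1.95 and 2.98 TPM (log2 difference -0.16, adjusted p = 0.7), and Ccr7, the receptor of dendritic cells that migrate to lymph nodes, did not exceed 0.893 TPM in any library. In bulk samples, fewer cells of a type and less RNA per cell cannot be told apart.

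**Figure D1:**
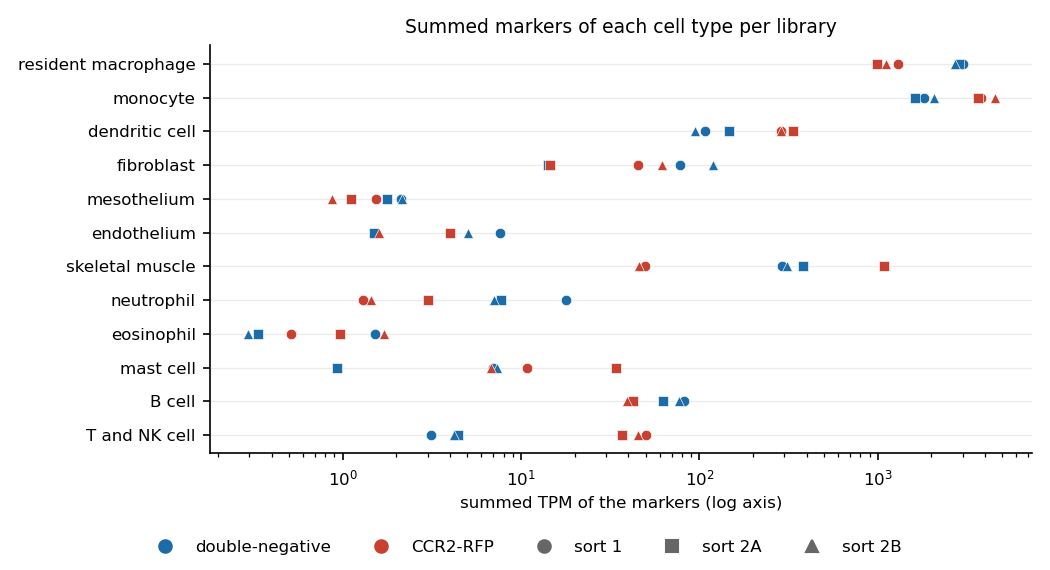
Summed TPM of the marker genes of 12 cell types (horizontal axis, log scale) in each of the 6 libraries, with colour for the population and marker shape for the sort. Resident macrophage markers summed to 2707 to 3008 TPM in double-negative and 989 to 1296 TPM in CCR2-RFP libraries, and the skeletal muscle sum of CCR2-RFP 2A (1086 TPM) stands away from the other 5 libraries.

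Markers of other cells were low in both populations apart from muscle. All 9 mesothelial markers stayed below 1 TPM in the 6 libraries. Endothelial markers summed to 1.49 to 7.63 TPM, neutrophil markers to 1.29 to 17.9 TPM and eosinophil markers to 0.294 to 1.70 TPM over both populations. Fibroblast markers summed to 14.1 to 120 TPM in double-negative and 14.5 to 61.6 TPM in CCR2-RFP libraries, with none of 7 tested members called. B cell markers summed to 62.7 to 81.6 TPM in double-negative and 39.5 to 42.7 TPM in CCR2-RFP libraries, where Cd79a and Pax5 reached at most 0.173 TPM. Of that list, Ighm was lower, at 13.5, 14.1 and 13.5 TPM against 70.1, 47.5 and 65.99 TPM, and Blnk was higher, at 27.99, 28.4 and 25.4 TPM against 11.4, 14.6 and 10.3 TPM. The T and NK cell sum was higher in CCR2-RFP libraries (36.8 to 50.5 TPM against 3.12 to 4.43 TPM). It came mostly from Cd2, at 37.9, 33.5 and 41.1 TPM, while Cd3e and Cd3g did not exceed 0.25 TPM. Cd3d, another chain of the same complex, passed the filter and was not called. Klrb1c was higher too, at 1.26, 1.39 and 2.41 TPM against 0.198, 0.113 and 0 TPM, and in CCR2-RFP 1 Gzma was at 4.36, Nkg7 at 3.32 and Ncr1 at 1.33 TPM, each listed at 0 in double-negative libraries. Mast cell markers reached 34.2 TPM in CCR2-RFP 2A, where Mcpt4 was at 15.8, Cpa3 at 8.92 and Tpsb2 at 3.22 TPM, with Kit at or below 0.376 TPM. The part of these cells in the results was not tested. With all 6 libraries none of the 10 muscle markers was called, and without CCR2-RFP 2A 7 of them were lower in CCR2-RFP cells.

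Of 10136 genes tested, 1512 (14.9%) were higher and 1001 (9.88%) were lower in CCR2-RFP cells, 24.8% in all, by limma at an adjusted p below 0.05. The median difference over all genes was 0.09. The share of calls that were higher, 60.2%, depended on scaling. It was 52.1% (1233 higher, 1135 lower) after median-of-ratios scaling, 49.4% (1107 and 1136) after quantile normalization and 43.9% (984 and 1258) with TPM rescaled without Siglece, mitochondrial and ribosomal protein genes, which moved the median of all genes to -0.08. Counts of 5 or more members of a list are given below under these scalings where they move by more than 1.5 times. The shares called were below 1.5 times those of all genes in both directions for nuclear receptors, JAK-STAT, Notch, autophagy, MHC class I, endoplasmic reticulum folding and lipid uptake genes. The test keeps genes at 1 TPM or more in 3 of the 9 libraries. Of these, 163 passed only through the CCR2-RFP libraries and 28 only through the double-negative libraries, 0 to 4 of them in each list below. A gene that passed through 1 population alone could hardly be called in the other direction, so its call is no support for its list. Such named genes include Adam8, Adgrg5, Aldh1a2, F2rl2, Gpr35, Il27ra, Itgb7, Kcnq1, Klrb1c, Ltb4r1, Mefv, Ptger2, Siglecg and Slc2a6, through CCR2-RFP libraries. They leave the test when any 1 CCR2-RFP library is left out, which lowers the higher counts of their lists. Libraries did not overlap between the populations for 42.7% of genes tested (25.8% higher, 16.9% lower).

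The 15 genes with the largest increases among those reaching 10 TPM led with the eosinophil-associated ribonuclease gene Ear2, the lysozyme gene Lyz1, the NF-kB inhibitor gene Tnip3 and Il1b. Next came Akr1c18, an aldo-keto reductase known for inactivating progesterone, at 49.1, 24.6 and 57.1 TPM against 0.3198, 0.08598 and 1.799 TPM (log2 difference 4.73 ± 0.47, adjusted p = 4.54e-05). Cd52, a small GPI-anchored leukocyte glycoprotein, was at 179, 173 and 180.3 TPM against 7.09, 3.22 and 12.4 TPM (log2 difference 4.53 ± 0.40, adjusted p = 2.49e-05). All 3 CCR2-RFP libraries lay within 173 to 180.3 TPM for Cd52, far above the highest double-negative library. Pilra, an inhibitory paired receptor that binds sialylated proteins, was at 36.04, 29.2 and 36.9 TPM against 0.402, 1.01 and 0.332 TPM (log2 difference 4.49 ± 0.23, adjusted p = 2.18e-06). Plbd1, a phospholipase-like lysosomal protein, was at 63.8, 89.6 and 64.1 TPM against 1.97, 2.43 and 2.46 TPM (log2 difference 4.47 ± 0.23, adjusted p = 2.18e-06), and Cd226, an activating receptor for nectin-family ligands best known on lymphocytes, at 61.1, 51.7 and 57.1 TPM against 2.51, 0.713 and 2.17 TPM (log2 difference 4.43 ± 0.29, adjusted p = 4.96e-06). Cytip, which regulates integrin adhesion through cytohesin, was at 48.2, 54.1 and 58.8 TPM against 1.36, 1.25 and 2.19 TPM (log2 difference 4.41 ± 0.23, adjusted p = 2.18e-06). Hopx, a homeodomain protein that does not bind DNA, was at 42.3, 36.6 and 46.1 TPM against 0.526, 0.789 and 1.96 TPM (log2 difference 4.4 ± 0.28, adjusted p = 4.18e-06). For Pilra, Plbd1, Cd226, Cytip and Hopx every double-negative library stayed below 3 TPM. Mucl1, a small secreted mucin-like protein, was at 35.9, 34.1 and 25.99 TPM against 0, 0.787 and 1.32 TPM, and Klrb1b, an inhibitory lectin-like receptor of the NKR-P1 family, at 18.5, 42.2 and 15.1 TPM against 0.3001, 0.553 and 0.0938 TPM. Fibronectin (Fn1) was the most abundant of the 15 in CCR2-RFP cells, at 1116, 1058 and 1368 TPM against 42.2, 76.4 and 63.5 TPM (log2 difference 4.29 ± 0.61, adjusted p = 0.000509). Lyz1 shares most of its sequence with Lyz2, Ear2 belongs to a multigene family, and how reads were divided among such copies is not known.

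The 15 largest decreases included the chemokine gene Ccl8, the scavenger lectin Colec12 and the iron exporter Slc40a1. Ms4a7, a tetraspan-like protein of macrophages, was at 5.17, 1.12 and 1.36 TPM against 44.3, 48.4 and 38.4 TPM (log2 difference -3.83 ± 0.35, adjusted p = 2.84e-05). Clec3b, which encodes the plasminogen-binding protein tetranectin, was at 6.61, 1.36 and 1.55 TPM against 36.5, 48.6 and 37.4 TPM (log2 difference -3.54 ± 0.41, adjusted p = 0.000131). Enpep, the aminopeptidase that trims angiotensin II, was at 1.64, 0.337 and 0.856 TPM against 19.97, 27.3 and 15.7 TPM (log2 difference -3.52 ± 0.32, adjusted p = 2.8e-05). For these 3 genes CCR2-RFP 1 was the highest CCR2-RFP library. It lies below each double-negative library by choice, as the largest decreases were taken only among genes whose libraries do not overlap. Ly6e, a GPI-anchored protein of the Ly6 family, was at 43.6, 17.8 and 32.7 TPM against 267, 344 and 238 TPM (log2 difference -3.2 ± 0.30, adjusted p = 3.53e-05). Siglech was at 3.35, 1.33 and 1.2 TPM against 28.4, 43.9 and 23.1 TPM and the clearance receptor Stab1 at 11.5, 3.298 and 5.47 TPM against 90.3, 79.9 and 63.4 TPM. Ceruloplasmin (Cp), a copper-binding ferroxidase, was at 1.98, 2.12 and 0.857 TPM against 19.3, 26.4 and 23.2 TPM, and complement C4b at 38.2, 22.1 and 29.4 TPM against 236, 419.7 and 219.6 TPM. Cytip lies on chromosome 2 (58129139 to 58195549), Hopx on chromosome 5 (77086986 to 77115123), Enpep on chromosome 3 (129269177 to 129332749) and Clec3b on chromosome 9 (123150946 to 123157432), as gene spans of RefSeq on GRCm38.p6.

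**Figure D2:**
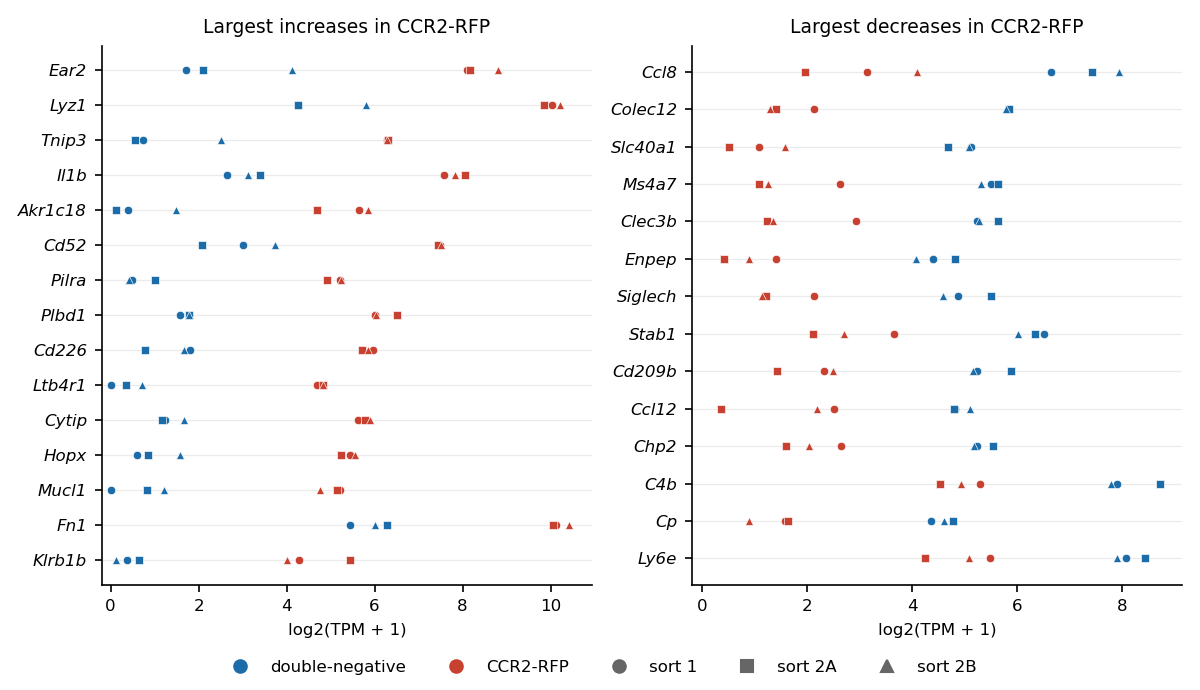
Expression as log2(TPM + 1) on the horizontal axis of the 15 genes with the largest increases (left) and 14 of the 15 with the largest decreases (right), 1 row per gene, with colour for the population and marker shape for the sort. These genes were taken only among those whose libraries do not overlap between the populations, so the separation in every row follows from the choice. Cd52 for example is at 173 to 180.3 TPM against 3.22 to 12.4 TPM.

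Transcription factors were taken in 2 lists, chosen with earlier results of these data known, so their directions are no check of the labels. Of 25 regulators grouped here, by choice, under resident macrophages 22 were tested. Of these, 10 were lower in CCR2-RFP cells and none was higher (median difference -0.69 against 0.09 over all genes). Besides Maf, these included Tcf4, an E-protein, at 15.3, 19.6 and 14.05 TPM against 58.9, 63.5 and 53.6 TPM (log2 difference -1.79 ± 0.17, adjusted p = 3.89e-05). Tfec, a macrophage member of the MITF family, was at 0.225, 0.254 and 0.446 TPM against 4.03, 4.38 and 6.45 TPM (log2 difference -2.17 ± 0.21, adjusted p = 4.22e-05), and Mef2c, a MADS-box factor, at 16.03, 21.7 and 16.99 TPM against 47.6, 52.1 and 47.5 TPM (log2 difference -1.39 ± 0.15, adjusted p = 7.09e-05). Spic, Klf4, Etv5, Mitf and Bhlhe41 were lower as well. The other 12 members did not pass, among them Spi1, which encodes PU.1, the factor that myeloid cells share, at 38.8, 35.4 and 31.6 TPM against 28.6, 31.6 and 25.8 TPM (adjusted p = 0.199), and Zeb2 at 112, 93.8 and 96.5 TPM against 115, 111 and 109 TPM (adjusted p = 0.607). For both genes the populations differed by less than the test could separate.

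Of 27 regulators linked to monocytes and dendritic cells 26 were tested, with 14 higher, 2 lower and 10 not called (median difference 0.90). Id2, an inhibitor of E-proteins that dendritic cell development needs, had the smallest p in this group, at 68.3, 67.3 and 83.02 TPM against 5.12, 5.45 and 5.43 TPM (log2 difference 3.54 ± 0.20, adjusted p = 3.05e-06). Its direction was opposite to that of the E-protein gene Tcf4. Bhlhe40, a repressor that supports macrophage proliferation and cytokine production, was at 18.99, 17.2 and 20.6 TPM against 1.68, 0.687 and 1.05 TPM (log2 difference 3.24 ± 0.24, adjusted p = 9.7e-06), and Batf3, which conventional dendritic cells of the first type need, was higher too (log2 difference 2.49, adjusted p = 1.96e-05). Nr4a1, Nr4a2 and Nr4a3, orphan nuclear receptors of the immediate-early class, were all higher. Nr4a3 was at 19.8, 26.02 and 32.3 TPM against 3.61, 6.21 and 3.36 TPM (log2 difference 2.34 ± 0.24, adjusted p = 6.07e-05), the largest difference of the 3, and Nr4a1 at 53.8, 55.7 and 53.6 TPM against 17.7, 23.02 and 12.8 TPM. The members that were lower were Cebpd, at 17.5, 19.8 and 21.6 TPM against 60.6, 62.7 and 79.3 TPM (log2 difference -1.72 ± 0.16, adjusted p = 3.43e-05), and Irf8, at 2.76, 1.29 and 3.34 TPM against 9.07, 10.8 and 12.99 TPM (log2 difference -1.83, adjusted p = 0.000406), a factor that monocyte and dendritic cell progenitors require. So the list did not move in a single direction, and Irf8 is itself a dendritic cell marker. Runx3 and Bcl11a were close to 0 in double-negative libraries and at 2.01, 3.08 and 2.87 TPM and 2.85, 4.96 and 1.85 TPM in CCR2-RFP libraries. Hif1a, the oxygen-regulated factor that drives glycolytic genes, was at 27.99, 33.4 and 27.6 TPM against 14.2, 7.29 and 9.74 TPM (log2 difference 1.47 ± 0.24, adjusted p = 0.00136).

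**Figure D3:**
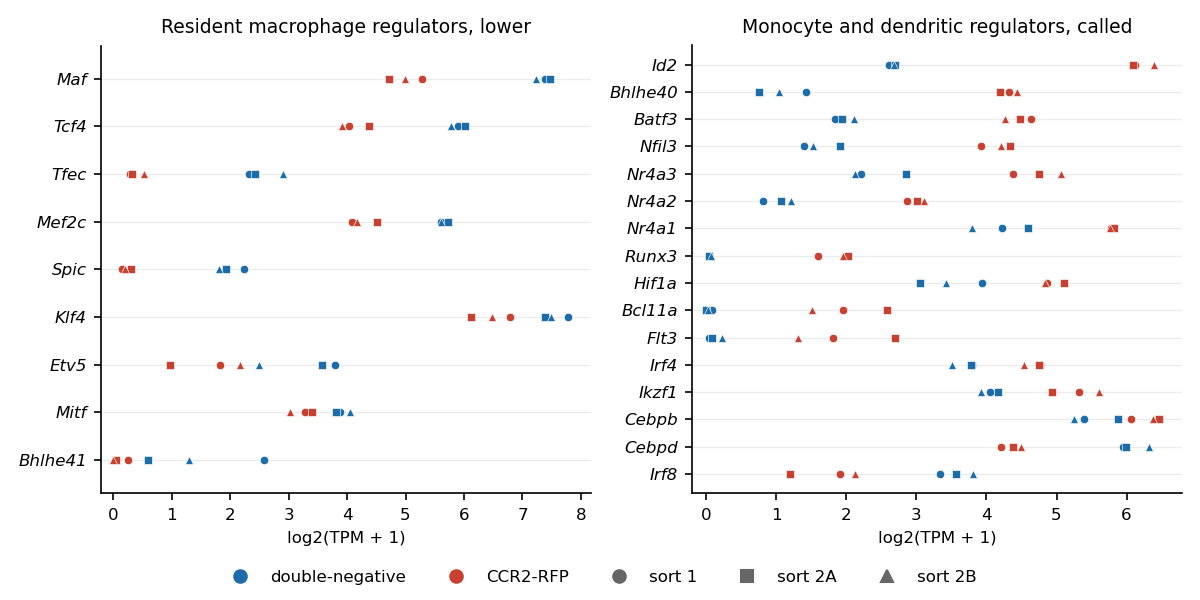
Expression as log2(TPM + 1) on the horizontal axis of 9 of the 10 called resident macrophage regulators (left) and of the monocyte and dendritic cell regulators (right), 1 row per gene, with colour for the population and marker shape for the sort. The 9 members on the left are lower in CCR2-RFP libraries, and on the right 14 are higher while Cebpd and Irf8 are lower.

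Immediate-early and AP-1 genes, which tissue digestion is known to induce, did not move in 1 direction. Of 18 tested, 2 were higher and 4 lower (11.1% and 22.2%, against 14.9% and 9.88% of all genes). The Nr4a genes above, also of the immediate-early class, were counted in other lists. Fosl2 was at 21.7, 25.2 and 30.9 TPM against 7.36, 8.38 and 6.15 TPM (log2 difference 1.69 ± 0.18, adjusted p = 7.18e-05) and Egr2 at 18.7, 16.2 and 24.4 TPM against 10.2, 9.48 and 8.04 TPM, whereas Jun was at 109, 82.4 and 92.7 TPM against 291, 239 and 205 TPM (log2 difference -1.36 ± 0.18, adjusted p = 0.000292) and Ier3 at 18.2, 12.2 and 14.4 TPM against 57.2, 38.96 and 44.3 TPM. Fos, the most abundant member of the list, was at 1289.7, 862 and 1243 TPM against 1355, 1364 and 1263 TPM and missed the threshold (adjusted p = 0.375). Both populations went through the same digestion, and its part in these differences was not tested. Among 24 nuclear receptors and coregulators tested, 5 were higher and 3 lower. Ncoa4, the receptor that delivers ferritin to autophagosomes, was at 24.3, 16.97 and 19.1 TPM against 66.8, 61.03 and 77.5 TPM (log2 difference -1.72 ± 0.21, adjusted p = 0.000204).

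NF-kB factors switch on inflammatory genes together with their own inhibitors, so that transcripts of the inhibitors accompany an active pathway. Of 22 genes for NF-kB subunits and their feedback regulators 21 were tested, with 7 higher, none lower and 14 not called (median difference 0.63; 5 to 7 higher under the other scalings). Tnfaip3, which encodes the ubiquitin-editing inhibitor A20, was at 39.2, 44.4 and 42.9 TPM against 10.3, 9.17 and 8.56 TPM (log2 difference 2.06 ± 0.19, adjusted p = 2.66e-05). Its partner Tnip3 was at 76.4, 78.5 and 76.8 TPM against 0.666, 0.473 and 4.697 TPM, one of the 15 largest increases (log2 difference 5.02, adjusted p = 3.97e-05). Traf1, an adaptor of TNF receptors, was at 5.54, 8.204 and 5.21 TPM against 0.772, 0.6105 and 0.694 TPM (log2 difference 2.09 ± 0.24, adjusted p = 0.000123), and Nfkbia, which encodes the inhibitor IkB-alpha, at 124, 149 and 131 TPM against 66.2, 45.9 and 56.1 TPM (log2 difference 1.26 ± 0.18, adjusted p = 0.000521). The subunit gene Rel was at 12.5, 15.7 and 13.3 TPM against 5.78, 6.24 and 4.65 TPM (log2 difference 1.18 ± 0.18, adjusted p = 0.000958), while Nfkb1 was at 9.06, 8.47 and 9.94 TPM against 6.69, 8.21 and 7.38 TPM (adjusted p = 0.248) and Rela at 4.36, 11.4 and 20.6 TPM against 5.15, 5.17 and 4.101 TPM (adjusted p = 0.323). In Rela the CCR2-RFP libraries spread from 4.36 to 20.6 TPM and overlapped with the other population. The kinase subunit gene Ikbkb (log2 difference 0.85, adjusted p = 0.0106) and the deubiquitinase gene Cyld (log2 difference 1.12, adjusted p = 0.0285) completed the higher members.

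The promoters of these members are shown because NF-kB is known to bind the sites from which its inhibitors are transcribed. The 250 bases before the annotated start, from RefSeq on GRCm38.p6 and written 5′ to 3′ on the gene's strand, were searched on both strands for GGG and TTTCC separated by 2 free bases, a form of the NF-kB site. It was found in 4 of the 6 higher members that have a promoter in the table, in 1 of 11 members that were not called (Nfkb2) and in 1.65% of the promoters of 27025 genes. Capitals mark the match, which in all 4 lies on the opposite strand and so reads as GGAAA and CCC separated by 2 bases.
Tnfaip3, chr10:19015411-19015660, minus strand: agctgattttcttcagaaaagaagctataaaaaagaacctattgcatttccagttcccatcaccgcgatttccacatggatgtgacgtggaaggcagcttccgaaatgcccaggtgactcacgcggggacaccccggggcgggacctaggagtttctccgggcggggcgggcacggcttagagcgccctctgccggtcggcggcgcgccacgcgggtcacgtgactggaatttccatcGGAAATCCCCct
Nfkbia, chr12:55492648-55492897, minus strand: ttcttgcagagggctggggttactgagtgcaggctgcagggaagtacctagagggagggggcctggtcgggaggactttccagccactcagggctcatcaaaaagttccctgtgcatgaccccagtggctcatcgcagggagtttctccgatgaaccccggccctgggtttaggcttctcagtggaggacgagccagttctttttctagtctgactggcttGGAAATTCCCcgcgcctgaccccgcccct
Rel, chr11:23770970-23771219, minus strand: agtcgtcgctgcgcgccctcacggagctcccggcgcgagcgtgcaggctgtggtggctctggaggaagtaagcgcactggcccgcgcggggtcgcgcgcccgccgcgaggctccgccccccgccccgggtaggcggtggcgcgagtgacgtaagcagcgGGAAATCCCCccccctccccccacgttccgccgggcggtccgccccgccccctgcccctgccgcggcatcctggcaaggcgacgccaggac
Cyld, chr8:88696778-88697027, plus strand: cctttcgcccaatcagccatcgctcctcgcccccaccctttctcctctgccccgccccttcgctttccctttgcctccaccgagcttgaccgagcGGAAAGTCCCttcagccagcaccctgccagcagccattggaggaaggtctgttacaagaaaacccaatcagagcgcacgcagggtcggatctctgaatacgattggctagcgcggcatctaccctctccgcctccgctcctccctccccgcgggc
The match began 12 bases before the start in Tnfaip3, 29 in Nfkbia, 91 in Rel and 155 in Cyld. Of stricter forms, GGGA and TTTCC separated by 1 base was found in Nfkbia and Cyld (0.414% of all genes), and GGGAC directly followed by TTTCC in Cyld (0.159%). Nfkb2, which was not called, held both of these stricter forms as well. GGAA and TTCCC separated by 1 base, a form that can overlap with these, was found in Nfkbia (0.333%). In all, 7 motifs were searched over the NF-kB and interferon lists, and a match describes letters, not binding.

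Cytokine genes split in the same libraries. Of 16 interleukin and TNF family ligands tested, 7 were higher and 3 lower (4 or 5 higher under the other scalings, 5 lower after rescaling, and 4 without double-negative 2A or 2B). Il1b and Il6, both inflammatory cytokines, were higher by 4.76 and 3.79 on the log2 scale, and Il1rn, the antagonist of the interleukin 1 receptor, by 3.96. Il16, a chemoattractant for CD4+ cells, was lower, at 4.94, 5.13 and 2.95 TPM against 10.9, 10.4 and 11.8 TPM (log2 difference -1.2 ± 0.21, adjusted p = 0.00181). Il10, an anti-inflammatory cytokine, was at 0.527, 0.191 and 0.768 TPM against 2.04, 5.11 and 5.28 TPM (log2 difference -1.73, adjusted p = 0.0111). Tnf was at 6.11, 6.52 and 6.21 TPM against 4.81, 3.28 and 3.11 TPM; the libraries did not overlap, yet the difference missed the threshold (adjusted p = 0.0965). Il1a varied most between CCR2-RFP libraries, at 2.46, 16.2 and 7.54 TPM against 0.458, 2.25 and 0.304 TPM (log2 difference 2.12, adjusted p = 0.0129).

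Chemokines divided as well, with 7 of 19 tested ligands higher and 6 lower. Cxcl2, a neutrophil attractant, was at 104, 111 and 121 TPM against 20.4, 18.2 and 14.2 TPM (log2 difference 2.61 ± 0.29, adjusted p = 0.000101), and Ccl9 at 373, 386 and 411 TPM against 172, 202 and 249 TPM. On the other side, Pf4 was lower (log2 difference -2.68) and Ccl24, a ligand of the eosinophil receptor CCR3, was at 61.4, 49.6 and 48.5 TPM against 164, 176 and 146 TPM (log2 difference -1.59 ± 0.15, adjusted p = 3.97e-05). Ccl7 and Ccl12, ligands of CCR2 itself, were at 28.8, 11.1 and 28.2 TPM against 121, 114 and 107 TPM and 4.69, 0.274 and 3.54 TPM against 27.1, 26.7 and 33.3 TPM and so were higher in the population without the Ccr2 reporter. Of 12 growth factor genes tested, 2 were higher and 6 lower (median difference -0.98), with 1 higher when any 1 library was left out and 1 after median-of-ratios scaling or rescaling. Areg, the EGF receptor ligand amphiregulin, was at 16.3, 10.6 and 15.6 TPM against 0, 0.224 and 1.15 TPM (log2 difference 3.44 ± 0.31, adjusted p = 2.49e-05). Gas6, the ligand that bridges dying cells to AXL and MERTK, was at 11.8, 4.71 and 7.13 TPM against 66.5, 66.8 and 59.5 TPM (log2 difference -2.95 ± 0.25, adjusted p = 2.09e-05), Bmp2 at 1.26, 1.06 and 0.246 TPM against 9.08, 10.1 and 6.79 TPM (log2 difference -2.41 ± 0.28, adjusted p = 0.000137) and Igf1 at 16.05, 4.797 and 12.4 TPM against 56.4, 62.1 and 59.5 TPM (log2 difference -2.46 ± 0.33, adjusted p = 0.000323). The other higher member, Pdgfb, lost its call when sorts were blocked (adjusted p = 0.049, 0.0705 with the block).

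Interferon-stimulated genes, which the type I interferon receptor switches on through JAK kinases and STAT and IRF factors, gave more lower than higher calls in CCR2-RFP cells. Of 42 tested, 21 were lower, 2 higher and 19 not called (median difference -0.81; 23 to 25 lower under the other scalings, 11 with sorts 2A and 2B only). The genes of the Ifi200 cluster, which encode nucleic acid sensors of the AIM2-like family, gave some of the smallest p. Ifi204 was at 14.1, 7.22 and 12.1 TPM against 61.1, 60.1 and 67.8 TPM (log2 difference -2.44 ± 0.21, adjusted p = 2.09e-05), Ifi207 at 47.95, 23.9 and 32.8 TPM against 194, 194 and 175 TPM (log2 difference -2.45 ± 0.22, adjusted p = 2.59e-05) and Ifi211 at 4.895, 2.19 and 3.67 TPM against 18.7, 18.7 and 22.5 TPM (log2 difference -2.23 ± 0.24, adjusted p = 7.33e-05). CCR2-RFP 2A was the lowest library for all 3. Ifi209, of the same cluster, moved the other way, at 23.9, 22.2 and 22.2 TPM against 8.003, 10.8 and 9.81 TPM (log2 difference 1.18 ± 0.16, adjusted p = 0.000422), so the cluster did not move as a unit, and its members are near copies among which reads could be divided. Oasl2, from the oligoadenylate synthetase family, was lower (log2 difference -1.93). Irf7, a factor that amplifies interferon production, was at 0.705, 0.376 and 1.29 TPM against 2.63, 4.35 and 3.72 TPM (log2 difference -1.37, adjusted p = 0.00244), and Ifit1, which binds foreign RNA caps, at 0.374, 0.738 and 0.61 TPM against 3.07, 2.89 and 2.89 TPM (log2 difference -1.33, adjusted p = 0.00036). Isg15, a ubiquitin-like protein, was at 0.875, 1.32 and 0.255 TPM against 1.52, 1.19 and 0.826 TPM and missed the threshold (adjusted p = 0.578).

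Promoters are shown for 4 lower members, as interferon acts through elements with paired GAAA letters. They were searched, as above, for TTTC and TTTC separated by 2 free bases (GAAA and GAAA on the other strand), a form of the interferon-stimulated response element. It was found in 8 of the 15 lower members with a promoter in the table, in 5 of 13 members that were not called, in neither of the higher members, and in 3.46% of all genes in the table.
Ifi207, chr1:173741810-173742059, minus strand: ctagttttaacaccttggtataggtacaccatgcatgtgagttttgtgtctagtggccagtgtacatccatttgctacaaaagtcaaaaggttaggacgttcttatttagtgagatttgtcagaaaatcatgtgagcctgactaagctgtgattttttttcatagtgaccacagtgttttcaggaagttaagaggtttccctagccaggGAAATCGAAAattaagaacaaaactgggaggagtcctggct
Ifi211, chr1:173913047-173913296, minus strand: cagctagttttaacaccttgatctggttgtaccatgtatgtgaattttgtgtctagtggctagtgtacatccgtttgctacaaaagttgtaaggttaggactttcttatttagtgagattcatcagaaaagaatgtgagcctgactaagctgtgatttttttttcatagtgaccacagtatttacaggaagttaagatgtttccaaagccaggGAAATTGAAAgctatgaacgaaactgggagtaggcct
Ifit1, chr19:34640639-34640888, plus strand: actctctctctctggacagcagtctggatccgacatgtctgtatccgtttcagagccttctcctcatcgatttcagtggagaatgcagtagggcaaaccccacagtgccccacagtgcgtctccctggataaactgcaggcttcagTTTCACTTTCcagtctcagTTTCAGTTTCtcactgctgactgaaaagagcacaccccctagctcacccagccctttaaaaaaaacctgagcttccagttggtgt
Slfn5, chr11:82951852-82952101, plus strand: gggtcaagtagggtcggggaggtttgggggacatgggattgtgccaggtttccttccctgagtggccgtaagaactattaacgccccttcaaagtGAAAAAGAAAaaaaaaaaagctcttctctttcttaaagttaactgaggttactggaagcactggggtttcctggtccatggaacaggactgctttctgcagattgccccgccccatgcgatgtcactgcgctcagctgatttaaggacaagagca
The match began 41 bases before the start in Ifi207, 37 in Ifi211 and 155 in Slfn5, and Ifit1 held 2 matches, at 85 and 104. The longer form, GAAA and GAAACT separated by 2 bases, was found in 5 of the 15 lower members and 2 of the 13 not called (0.255% of all genes), and TTTCAC directly followed by TTTC in Ifit1 and Ifit3 (0.248%). The share of members with a match was above that of all genes among lower and uncalled members alike.

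**Figure D4:**
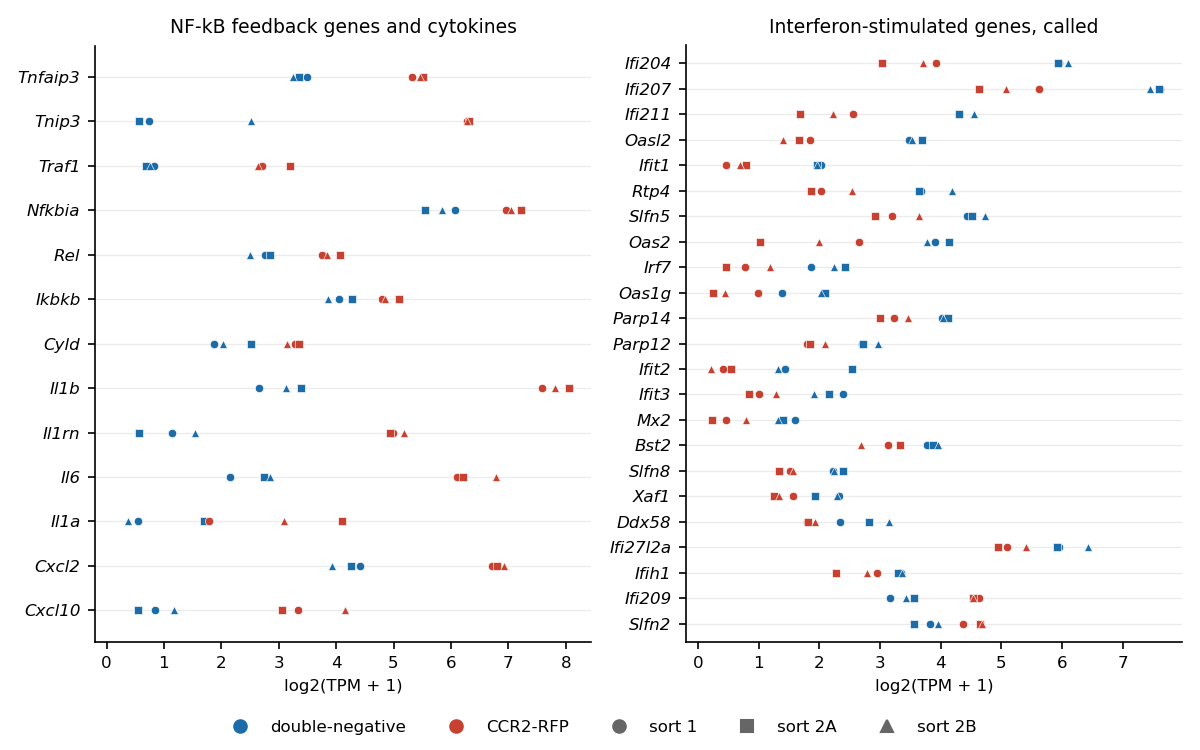
Expression as log2(TPM + 1) on the horizontal axis of the higher NF-kB feedback genes with 6 cytokine and chemokine genes (left) and of the called interferon-stimulated genes (right), 1 row per gene, with colour for the population and marker shape for the sort. On the left every gene is higher in CCR2-RFP libraries; on the right 21 are lower, and Ifi209 and Slfn2 are higher.

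Innate sensors differed by class. Of 25 genes for Toll-like receptors and their adaptors, 8 were lower and 4 higher (32% and 16%, against 9.88% and 14.9% of all genes). The higher count, near the share of all genes, was 2 or 3 under the other scalings. It was 1 without CCR2-RFP 2A or 2B and 2 without double-negative 1 or 2A, while the lower count was 5 without double-negative 1. Tlr7, the endosomal receptor for single-stranded RNA, was at 6.73, 4.37 and 5.11 TPM against 36.9, 36.8 and 40.5 TPM (log2 difference -2.63 ± 0.16, adjusted p = 3.64e-06), and Tlr5, the flagellin receptor, at 1.99, 1.36 and 1.898 TPM against 14.9, 18.9 and 13.3 TPM (log2 difference -2.6 ± 0.19, adjusted p = 7.27e-06). Tlr13 and Tlr8, which also sense RNA in endosomes, were at 0.971, 1.02 and 0.605 TPM against 3.98, 3.51 and 4.79 TPM and 7.205, 8.09 and 9.501 TPM against 17.2, 21.2 and 21.2 TPM. The receptors with the smallest p were thus lower in CCR2-RFP cells, although Cd180, which regulates signalling by TLR4, was higher (log2 difference 1.04, adjusted p = 0.000472). Of 16 inflammasome genes 7 were higher and 2 lower. Of the higher members, Mefv reached 1 TPM in CCR2-RFP libraries alone. Mefv, which encodes pyrin, was at 1.74, 4.08 and 2.85 TPM against 0.0226, 0.137 and 0.0678 TPM (log2 difference 1.81 ± 0.25, adjusted p = 0.000389), and the sensor Nlrp1b at 4.52, 5.28 and 5.96 TPM against 1.28, 1.73 and 1.55 TPM (log2 difference 1.31 ± 0.20, adjusted p = 0.000773). Nlrc4, the sensor that acts downstream of bacterial flagellin, was lower, at 0.816, 0.645 and 0.849 TPM against 3.22, 2.804 and 3.97 TPM (log2 difference -1.28 ± 0.19, adjusted p = 0.000622).

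Cytokine receptors moved in both directions. Of 34 tested, 8 were higher and 8 lower. Csf1r fell by 1.68 on the log2 scale, and Lifr, the receptor for leukaemia inhibitory factor, was at 26.3, 26.2 and 29.8 TPM against 74.3, 72.8 and 74.6 TPM (log2 difference -1.4 ± 0.13, adjusted p = 3.2e-05). Il27ra was at 3.58, 3.86 and 4.48 TPM against 0.181, 0.0885 and 0.271 TPM (log2 difference 2.07 ± 0.19, adjusted p = 3.02e-05) and Il2rg, the common gamma chain, at 16.9, 16.2 and 18.7 TPM against 3.299, 3.01 and 2.81 TPM (adjusted p = 4.01e-05). The receptor genes for GM-CSF were higher: Csf2ra was at 45.5, 47.6 and 44.2 TPM against 11.1, 14.4 and 6.87 TPM (log2 difference 2.04 ± 0.23, adjusted p = 0.000124) and Csf2rb at 17.7, 14.96 and 18.7 TPM against 6.903, 6.79 and 7.34 TPM (log2 difference 1.17 ± 0.16, adjusted p = 0.000443). Il7r was at 2.17, 4.13 and 3.02 TPM against 0.0314, 0.0344 and 0.107 TPM. The receptors for GM-CSF and CSF1 thus moved in opposite directions. Of 22 genes for JAK kinases, STATs and SOCS inhibitors, 4 were higher and 1, Jak3, was lower, without its call when sorts were blocked (adjusted p = 0.0383, 0.0621 with the block). Socs6, an adaptor that targets receptor kinases for degradation, stood out in that list, at 71.2, 70.8 and 79.99 TPM against 6.23, 6.23 and 7.91 TPM (log2 difference 3.27 ± 0.21, adjusted p = 4.96e-06). Jak2, the kinase used by the GM-CSF receptor, was at 8.34, 11.3 and 10.4 TPM against 3.42, 3.69 and 3.93 TPM (log2 difference 1.23 ± 0.19, adjusted p = 0.00101). Of 24 TGF-beta and BMP pathway genes, 6 were lower and 1 higher. The receptor genes Tgfbr2 and Bmpr1a were at 6.79, 9.004 and 11.9 TPM against 44.7, 49.02 and 40.6 TPM (log2 difference -2.19 ± 0.22, adjusted p = 5.9e-05) and 0.326, 0.337 and 0.722 TPM against 3.22, 2.85 and 2.57 TPM (log2 difference -1.42 ± 0.23, adjusted p = 0.00116). Skil, an inhibitor of SMAD signalling, was the higher member (log2 difference 1.33, adjusted p = 0.00278). Dusp6, the phosphatase that limits ERK signalling, was at 7.95, 4.77 and 6.84 TPM against 29.8, 24.3 and 25.6 TPM (log2 difference -1.89 ± 0.20, adjusted p = 6.45e-05), and Spred1, another ERK inhibitor, at 19.5, 28.6 and 30.6 TPM against 55.1, 65.6 and 54.1 TPM.

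Surface receptors came next. Among 28 C-type lectins tested, 10 were higher and 12 lower. Clec5a, a receptor that signals through DAP12, was at 0.903, 0.642 and 0.654 TPM against 12.7, 11 and 14.1 TPM (log2 difference -2.97 ± 0.19, adjusted p = 4.77e-06), whereas Clec4b1, a lectin known from dendritic cells, was at 54.1, 59.2 and 72 TPM against 6.48, 6.202 and 8.21 TPM (log2 difference 2.98 ± 0.21, adjusted p = 6.73e-06). Of 7 genes of the MS4A family 4 were lower and none was higher (median difference -1.78). Ms4a6b was at 7.81, 3.85 and 5.65 TPM against 49.1, 55.9 and 71.4 TPM (log2 difference -3.17 ± 0.22, adjusted p = 6.83e-06), Ms4a6d at 10.2, 5.83 and 7.32 TPM against 46.5, 52.9 and 54.8 TPM and Ms4a6c at 22.9, 28.1 and 20.6 TPM against 80.4, 73.4 and 101 TPM. The Ms4a6 genes are near copies, and their separate values are uncertain. Siglecs, a family of immunoglobulin-like lectins, were lower in 3 of 5 tested. Cd33 was at 11.8, 5.84 and 5.37 TPM against 53, 53.8 and 45 TPM (log2 difference -2.64 ± 0.24, adjusted p = 2.89e-05) and Siglec1 at 3.18, 1.04 and 3.803 TPM against 26.1, 27.1 and 19.05 TPM (log2 difference -2.85 ± 0.29, adjusted p = 6.14e-05). Siglech, named above, was lower too. Siglecg was the higher member, at 1.27, 2.62 and 1.15 TPM against 0.0753, 0.08402 and 0.123 TPM.

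Paired immune receptors went the other way in 12 of 25 tested members, with 5 lower. Besides Pilra, Lilra6 was at 14.5, 10.2 and 12.1 TPM against 1.19, 0.707 and 0.447 TPM (log2 difference 2.91 ± 0.22, adjusted p = 9.24e-06) and Pira2 at 11.9, 10.8 and 10.2 TPM against 1.61, 0.764 and 0.8598 TPM (log2 difference 2.55 ± 0.24, adjusted p = 3.36e-05). These immunoglobulin-like receptors lie in a family of close copies, and the division of reads between them is uncertain. Lair1, the inhibitory collagen receptor, was lower, at 1.64, 0.917 and 2.01 TPM against 10.7, 13.4 and 10.8 TPM (log2 difference -2.34 ± 0.20, adjusted p = 1.98e-05). Trem2, an activating receptor for lipids and apoptotic cells, was at 0.987, 0.775 and 1.402 TPM against 5.53, 2.89 and 2.77 TPM (log2 difference -1.17, adjusted p = 0.00791). Of 8 Fc receptor genes 4 were lower and 1 higher. Fcgrt, the neonatal Fc receptor that salvages immunoglobulin G, was at 20.1, 10.6 and 26.04 TPM against 147, 155 and 176 TPM (log2 difference -3.09 ± 0.26, adjusted p = 2.09e-05), and the high-affinity receptor Fcgr1 at 2.01, 0.105 and 0.267 TPM against 11.8, 11.1 and 13.5 TPM (log2 difference -3.02 ± 0.34, adjusted p = 9.97e-05). Fcgr2b was at 89.7, 104 and 100.1 TPM against 143, 149.7 and 155 TPM, a smaller difference (log2 difference -0.61, adjusted p = 0.00379) than that of Fcgr1. Of 16 costimulation and checkpoint ligands 6 were higher and 3 lower. Icosl, the ligand of ICOS, was at 18.5, 14.9 and 15.7 TPM against 4.12, 2.86 and 2.63 TPM (log2 difference 2.06 ± 0.22, adjusted p = 7.78e-05), Slamf7 at 15.4, 22.97 and 12.6 TPM against 3.23, 3.48 and 2.58 TPM (log2 difference 2.1 ± 0.23, adjusted p = 9.11e-05) and Slamf9 at 46.3, 41.8 and 45.9 TPM against 8.05, 6.61 and 8.55 TPM (log2 difference 2.39 ± 0.23, adjusted p = 3.61e-05), while the complement receptor Vsig4, which also restrains T cells, was at 0.511, 1.53 and 0.392 TPM against 10.2, 18.05 and 13.4 TPM (log2 difference -3.06 ± 0.32, adjusted p = 6.13e-05). Cd63, a tetraspanin of late endosomes, was lower at 15.8, 5.65 and 8.84 TPM against 92.3, 86.5 and 81.5 TPM (log2 difference -3.09 ± 0.28, adjusted p = 2.59e-05), and Cd9 higher at 12.4, 14.5 and 9.98 TPM against 2.59, 2.95 and 3.72 TPM (log2 difference 1.7 ± 0.19, adjusted p = 0.000124).

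Scavenger receptors and genes for uptake of apoptotic cells were lower in 11 of 24 tested and higher in 3 (median difference -0.45). The members with the smallest p were Colec12, Cd163, Gas6 and Msr1, the class A scavenger receptor, at 6.41, 11.1 and 8.06 TPM against 38.8, 39.8 and 39.6 TPM (log2 difference -2.11 ± 0.18, adjusted p = 2.09e-05). Mertk and Timd4, receptors for phosphatidylserine on dying cells, were at 6.25, 3.89 and 4.93 TPM against 18.1, 18.5 and 18.7 TPM and 4.22, 1.22 and 3.31 TPM against 26.1, 26.1 and 23.9 TPM. Axl, of the same kinase family as Mertk, was higher at 2.62, 2.497 and 2.86 TPM against 0.566, 0.67 and 1.31 TPM (log2 difference 1.01, adjusted p = 0.0305). Complement genes were lower in 9 of 22, with 2 higher. C1qa and C1qc were lower (log2 differences -1.78 and -2.16). The higher members, Itgax and Itgam, encode chains of complement receptors, and Itgam was part of the sort. Dextran was required of double-negative cells alone, so for uptake genes the gate and the population cannot be told apart.

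G protein-coupled receptors outside the chemokine and nucleotide families gave 14 higher and 14 lower among 35 tested. The higher count was 8 without CCR2-RFP 2A and 9 without 2B, in part because 4 members reach 1 TPM in CCR2-RFP libraries alone and leave the test. Gpr35, which tryptophan metabolites can activate, was at 9.54, 12.9 and 12.1 TPM against 0.2801, 0.249 and 0.174 TPM (log2 difference 3.34 ± 0.23, adjusted p = 6.62e-06), and Gpr132, a receptor sensitive to lactate and lysolipids, at 19.3, 22.2 and 19.4 TPM against 0.755, 0.4299 and 0.769 TPM (log2 difference 3.69 ± 0.29, adjusted p = 1.16e-05). Adgrg5, an adhesion receptor, was at 9.35, 5.03 and 5.11 TPM against 0.163, 0.0536 and 0.267 TPM (log2 difference 2.65 ± 0.25, adjusted p = 3.46e-05). Gpr34, a lysophosphatidylserine receptor of microglia and other resident macrophages, was lower at 8.45, 6.26 and 3.45 TPM against 40.5, 49.6 and 52.2 TPM (log2 difference -2.84 ± 0.24, adjusted p = 2.09e-05). Among lipid mediators, of 25 genes for prostaglandin and leukotriene synthesis, breakdown and receptors, 9 were lower and 6 higher, the latter 3 without CCR2-RFP 2A, 2 without 2B and 1 without 1. Hpgd, which inactivates prostaglandins, was at 12.6, 9.48 and 10.3 TPM against 73.9, 70.5 and 77.4 TPM (log2 difference -2.68 ± 0.14, adjusted p = 2.18e-06), and Hpgds, which makes prostaglandin D2, at 2.71, 0.567 and 1.84 TPM against 22.5, 19.98 and 22.6 TPM (log2 difference -3.15 ± 0.28, adjusted p = 2.4e-05). The receptor for leukotriene B4 (Ltb4r1) was higher by 4.42 and the prostaglandin E2 receptor Ptger2 was at 4.23, 4.09 and 3.45 TPM against 0.0795, 0.135 and 0.472 TPM (log2 difference 2.01 ± 0.20, adjusted p = 4.58e-05). Ptger4, the other receptor that raises cyclic AMP on binding prostaglandin E2, was lower, at 4.71, 4.25 and 4.22 TPM against 12.4, 13.5 and 10.7 TPM (log2 difference -1.29, adjusted p = 0.000811). Ltb4r1 and Ptger2 are among 4 members of the list that reach 1 TPM in CCR2-RFP libraries alone.

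Most adhesion and motility genes tested were higher. Of 65 genes of actin and cell motility tested, 46 were higher, 4 lower and 15 not called (median difference 0.97). Ezr, which encodes ezrin, a linker of actin to the membrane, was at 18.3, 17.7 and 16.6 TPM against 1.79, 1.58 and 2.21 TPM (log2 difference 2.7 ± 0.17, adjusted p = 4.65e-06). Capg, an actin filament capping protein, was at 65.3, 64.7 and 61.6 TPM against 15.02, 11.8 and 13.04 TPM (log2 difference 2.19 ± 0.15, adjusted p = 6.1e-06), Lsp1, a leukocyte actin-binding protein, at 179.6, 191 and 185 TPM against 15.1, 11.97 and 19.7 TPM (log2 difference 3.51 ± 0.24, adjusted p = 6.4e-06) and the short-tailed myosin Myo1g at 26.6, 29.8 and 32.5 TPM against 5.71, 4.38 and 5.097 TPM (log2 difference 2.34 ± 0.17, adjusted p = 7.83e-06). For each of these 4 genes the lowest CCR2-RFP library was above 3 times the highest double-negative library. Marcksl1, Rhob, Swap70 and Diaph2 were the lower members. Of 21 integrins and leukocyte adhesion genes 14 were higher and 3 lower (median difference 1.08). Alcam, which binds CD6 on T cells, was at 40.99, 46.7 and 39.1 TPM against 2.45, 2.16 and 1.71 TPM (log2 difference 3.8 ± 0.20, adjusted p = 2.18e-06), Cd44 was higher by 2.56 and Itgb7, the partner of alpha 4 and alpha E integrins, was at 5.72, 6.66 and 5.88 TPM against 0.597, 0.296 and 0.367 TPM (log2 difference 2.32 ± 0.19, adjusted p = 1.74e-05). Itga4, the alpha chain that binds VCAM-1 and pairs with Itgb7, was at 84.5, 101 and 88.6 TPM against 23.8, 31.6 and 31.01 TPM (log2 difference 1.64, adjusted p = 6.01e-05). Itga9 was lower, at 0.599, 0.425 and 0.593 TPM against 5.61, 5.22 and 4.76 TPM.

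Of 30 matrix proteins and proteases tested, 5 were higher and 6 lower (16.7% and 20%, against 14.9% and 9.88% of all genes), with 3 higher under each of the other scalings, 2 higher without CCR2-RFP 2A or 2B and 3 without double-negative 2B. Mmp19, a metalloproteinase, was at 35.4, 35.7 and 35.6 TPM against 2.11, 2.05 and 2.42 TPM (log2 difference 3.52 ± 0.29, adjusted p = 1.73e-05), with all 3 CCR2-RFP libraries between 35.4 and 35.7 TPM. Adam8, a sheddase of leukocytes, was at 13.99, 14.4 and 13.3 TPM against 0.255, 0.418 and 0.7198 TPM (log2 difference 3.36 ± 0.20, adjusted p = 3.64e-06). Timp2, an inhibitor of metalloproteinases, was lower at 74.5, 73.4 and 70.6 TPM against 194, 204 and 197 TPM (log2 difference -1.43 ± 0.12, adjusted p = 1.65e-05). Adam10, another higher member, lost its call when sorts were blocked (adjusted p = 0.0411, 0.0567 with the block). Of 23 genes of coagulation and fibrinolysis 6 were higher and 5 lower. Anxa2 and S100a10, which together form a receptor for plasminogen and its activator, were at 159, 129 and 133 TPM against 23.6, 20.02 and 23.7 TPM (log2 difference 2.59 ± 0.14, adjusted p = 2.83e-06) and 241, 162 and 191 TPM against 62.8, 43.01 and 68.8 TPM. Plaur, the urokinase receptor, was at 18.4, 19.9 and 27.9 TPM against 1.75, 1.82 and 2.13 TPM (log2 difference 2.97 ± 0.19, adjusted p = 4.96e-06) and F2rl2, a thrombin-cleaved receptor, at 7.68, 4.83 and 9.13 TPM against 0.133, 0.199 and 0.0958 TPM (log2 difference 2.81 ± 0.23, adjusted p = 1.64e-05). F13a1, the clotting transglutaminase made by resident macrophages, was lower at 135, 104 and 144 TPM against 378, 337 and 374 TPM (log2 difference -1.51 ± 0.18, adjusted p = 0.000146). Among small calcium-binding and secreted proteins, 12 of 29 were higher and 2 lower, led by S100a11 at 310.3, 252 and 334 TPM against 29.8, 25.4 and 32.6 TPM (log2 difference 3.31 ± 0.16, adjusted p = 2.18e-06). Retnla, a secreted product of alternatively activated macrophages, was the most abundant of these, at 12395, 10766 and 16041 TPM against 3739.9, 4723 and 4432 TPM (log2 difference 1.59 ± 0.21, adjusted p = 0.000318). Of 18 genes of alternative activation 7 were higher, Retnla included, and 5 lower, Ccl24 included.

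Lysosomal protease and hydrolase genes gave more lower than higher calls. Of 16 cathepsins, legumain and cystatins tested, 9 were lower and 2 higher (median difference -0.75). Lgmn, the asparagine-specific protease, was at 56.2, 39.6 and 47.1 TPM against 219, 211 and 197 TPM (log2 difference -2.12 ± 0.15, adjusted p = 7.27e-06), Ctsc, which activates serine proteases, at 169, 154 and 176 TPM against 425, 479 and 463 TPM (log2 difference -1.45 ± 0.12, adjusted p = 1.74e-05), and Ctsb was lower (log2 difference -1.81). Napsa, an aspartic protease known from antigen-presenting and lung cells, was higher at 12.6, 11.7 and 15.03 TPM against 0.251, 0.353 and 0.267 TPM (log2 difference 3.44 ± 0.24, adjusted p = 6.4e-06). Of 49 other lysosomal hydrolases and membrane proteins 21 were lower, 5 higher and 23 not called (median difference -0.47). Lamp2 was at 58.9, 61.1 and 70.3 TPM against 131, 137 and 140.0 TPM (log2 difference -1.09 ± 0.13, adjusted p = 0.000124). The higher members included Plbd1, Gm2a, Psap and Laptm5. Gm2a, the activator of ganglioside breakdown, was at 124, 129.9 and 212 TPM against 30.7, 16.7 and 21.6 TPM (log2 difference 2.7 ± 0.25, adjusted p = 3.36e-05) and Psap, the precursor of saposins, at 414, 428 and 449 TPM against 223, 226 and 199 TPM. Both lipid-hydrolysis activators were thus higher while 21 members of the list were lower. Of 18 genes of the vacuolar proton pump 2 were higher and 3 lower (11.1% and 16.7%, against 14.9% and 9.88% of all genes). Of 36 autophagy genes 3 were lower (4 to 6 under the other scalings, 5 without CCR2-RFP 2B) and none was higher.

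Endocytosis genes were lower in 14 of 49 tested and higher in 3. Dab2, an adaptor for clathrin cargo, was at 49.3, 43.3 and 42.6 TPM against 220.0, 211 and 178 TPM (log2 difference -2.14 ± 0.13, adjusted p = 3.65e-06), the clathrin heavy chain (Cltc) at 168, 141 and 154 TPM against 362, 379 and 344 TPM (log2 difference -1.23 ± 0.12, adjusted p = 3.78e-05) and Rab3il1, an activator of Rab proteins, at 6.59, 3.49 and 3.85 TPM against 26.7, 22.9 and 22.5 TPM (log2 difference -2.19 ± 0.20, adjusted p = 3.2e-05). Rab11fip1, which binds the recycling protein RAB11, was higher, at 21.4, 30.8 and 34.4 TPM against 0.867, 0.646 and 0.984 TPM (log2 difference 4 ± 0.22, adjusted p = 2.66e-06), from below 1 TPM in each double-negative library. Iron and haem genes were lower in 13 of 27 tested and higher in 1 (median difference -0.65). After Slc40a1, Cd163 and Cp, transferrin (Trf) was at 28.3, 42.6 and 27.6 TPM against 114, 117 and 105 TPM (log2 difference -1.76 ± 0.17, adjusted p = 3.78e-05). Tfrc, the transferrin receptor, was at 13.9, 5.05 and 6.67 TPM against 48.4, 49.4 and 40.3 TPM (log2 difference -2.41 ± 0.28, adjusted p = 0.000136). The genes for the iron carrier, its receptor and the iron exporter were thus all lower in CCR2-RFP cells. The higher member, Mfsd7b, encodes a haem exporter and was at 13.2, 13.9 and 13.3 TPM against 6.95, 6.15 and 5.94 TPM (log2 difference 0.98, adjusted p = 0.00174).

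Among genes of protein synthesis and turnover, the number called higher depended on scaling. Of 79 cytosolic ribosomal protein genes 72 were higher and none lower (median difference 0.86; 70 after median-of-ratios scaling and 52 after quantile normalization). Rpsa, the laminin-binding ribosomal protein, was at 140.1, 147 and 155 TPM against 48.4, 48.6 and 55.7 TPM (log2 difference 1.52 ± 0.14, adjusted p = 3.43e-05) and Rplp0 at 136, 166 and 145 TPM against 43.8, 42.98 and 61.7 TPM (log2 difference 1.59 ± 0.16, adjusted p = 5.62e-05). Ribosomal protein mRNA took 2.53 to 3.15% of listed TPM in double-negative and 4.28 to 4.6% in CCR2-RFP libraries. Processed copies of ribosomal protein genes are many, and how reads on them were counted is not known. Of 48 translation factors 20 were higher and 1 lower (12 to 14 higher under the other scalings, 13 without CCR2-RFP 2B). Pabpc1, the poly(A)-binding protein, was at 131, 159.5 and 151 TPM against 60.5, 63.2 and 60.96 TPM (log2 difference 1.24 ± 0.14, adjusted p = 0.000133). The lower member was Eef2k, the kinase that slows elongation, at 2.29, 0.663 and 1.59 TPM against 9.202, 9.46 and 8.41 TPM (log2 difference -2.05 ± 0.24, adjusted p = 0.000149). Of 38 proteasome genes 17 were higher and none lower (10 to 12 under the other scalings, 11 without CCR2-RFP 1, 8 without CCR2-RFP 2B and 9 without double-negative 2A). Psma4 was at 59.5, 51.4 and 59.5 TPM against 17.9, 15.7 and 21.7 TPM (log2 difference 1.58 ± 0.21, adjusted p = 0.00036) and the immunoproteasome subunit Psmb8 at 18.3, 15.5 and 21.6 TPM against 6.703, 7.77 and 7.17 TPM (log2 difference 1.23 ± 0.21, adjusted p = 0.00163). Of 33 heat shock proteins and chaperones 15 were higher and none lower (9 to 13 under the other scalings). The first 4 by p, Cct8, Cct6a, Cct5 and Cct4, all encode the ring that folds actin and tubulin, and Cct8 was at 18.3, 21.6 and 20.98 TPM against 10.2, 7.42 and 10.7 TPM (log2 difference 1.04 ± 0.17, adjusted p = 0.00146). The 6 higher of 28 genes for folding in the endoplasmic reticulum were 1 or 2, with 3 or 4 lower, under the other scalings, so that list had no stable direction. They were 2 without CCR2-RFP 2A or double-negative 1 and 3 without double-negative 2A.

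Counts of higher glycolysis and respiratory chain genes fell when any 1 library was left out, as did the count over all genes. Of 33 genes of glycolysis and lactate handling 17 were higher and 2 lower (median difference 0.74). The higher count was 10 to 14 when single libraries were left out. It was 10 without CCR2-RFP 2A, the library with the most muscle mRNA, and 11 without double-negative 2A. Slc2a6, a sugar transporter, was at 10.6, 14.3 and 13.2 TPM against 0.441, 0.4197 and 0.201 TPM (log2 difference 3.33 ± 0.21, adjusted p = 4.32e-06). Pfkp, the platelet form of phosphofructokinase, was at 12.3, 11.3 and 15.2 TPM against 2.9, 2.59 and 1.86 TPM (log2 difference 2.02 ± 0.20, adjusted p = 4.09e-05), the lactate exporter Slc16a3 at 8.18, 6.45 and 7.79 TPM against 0.199, 1.06 and 0.427 TPM (log2 difference 2.47 ± 0.24, adjusted p = 4.13e-05) and Pgam1 at 24.3, 24.04 and 34.3 TPM against 7.88, 6.52 and 8.61 TPM (log2 difference 1.71 ± 0.21, adjusted p = 0.000181). The part of muscle mRNA in these counts was not tested. Pfkfb3, which makes the activator of phosphofructokinase, was lower, at 6.23, 6.41 and 7.79 TPM against 33.3, 14.3 and 25.5 TPM (log2 difference -1.63, adjusted p = 0.00179). Of 77 nuclear-encoded genes of the respiratory chain 23 were higher and none lower, against 15, 4 and 6 higher under the other scalings. That count was 11 and 10 without CCR2-RFP 2A and 2B, and 15 and 9 without double-negative 1 and 2A. Cycs, the cytochrome c gene, was at 27.1, 30.3 and 26.6 TPM against 14.4, 14.02 and 12.1 TPM (log2 difference 1 ± 0.16, adjusted p = 0.00115). Mitochondrially encoded mRNA ran the other way, at 3.98 to 5.46% of listed TPM in double-negative and 2.03 to 2.88% in CCR2-RFP libraries, and its part in these differences was not tested. Of 15 genes of the pentose phosphate path and NADPH use 7 were higher and 2 lower. Tkt, transketolase, was at 14.04, 17.4 and 16.7 TPM against 5.36, 6.87 and 4.43 TPM (log2 difference 1.39 ± 0.18, adjusted p = 0.000323) and Ncf1, a subunit of the phagocyte oxidase, at 51.3, 47.1 and 49.2 TPM against 27.4, 25.6 and 24.3 TPM (log2 difference 0.91 ± 0.15, adjusted p = 0.00155). Cybb, the catalytic oxidase subunit, was lower and lost its call when sorts were blocked (adjusted p = 0.0388, 0.0582 with the block).

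Of 27 genes of cholesterol and fatty acid synthesis 7 were higher and none lower (4 without any of the CCR2-RFP libraries). Elovl5, a fatty acid elongase, was at 31.2, 16.7 and 18.7 TPM against 5.16, 5.98 and 6.03 TPM (log2 difference 1.74 ± 0.24, adjusted p = 0.000415). Hmgcs1 lost its call when sorts were blocked (adjusted p = 0.0484, 0.0518 with the block). Of 40 genes of lipid uptake, storage and efflux 5 were higher and 5 lower, 12.5% each, against 14.9% and 9.88% of all genes. Abca1, the cholesterol exporter, was at 3.902, 3.64 and 3.14 TPM against 16.2, 18.4 and 19.04 TPM (log2 difference -2.05 ± 0.16, adjusted p = 1.23e-05) and Apoe at 376, 233 and 275 TPM against 1533, 1463 and 1481 TPM (log2 difference -2.37 ± 0.19, adjusted p = 1.38e-05). Abcg1, another exporter, moved opposite to Abca1, at 6.39, 6.07 and 8.91 TPM against 0.936, 0.645 and 0.647 TPM (log2 difference 2.21 ± 0.21, adjusted p = 3.2e-05). Aldh1a2, which makes retinoic acid, was at 23.1, 22.9 and 23.9 TPM against 0.432, 0.338 and 0.935 TPM (log2 difference 3.97 ± 0.22, adjusted p = 2.83e-06), in a retinoid list with 3 of 11 members higher (1 without CCR2-RFP 1 or 2A) and 1 lower. That lower member, Dhrs3, lost its call with sorts blocked (0.0577, against an adjusted p of 0.0377). The higher members Aldh1a2 and Dhrs9 reach 1 TPM in CCR2-RFP libraries alone and leave the test when any 1 of those is left out. Selenop, the secreted selenium carrier, was at 248, 147 and 218 TPM against 1439, 1353 and 1677 TPM (log2 difference -2.89 ± 0.19, adjusted p = 5.14e-06). Its list of 39 antioxidant genes had 6 higher and 8 lower (15.4% and 20.5%, against 14.9% and 9.88% of all genes).

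Of 15 genes of the BCL-2 family 6 were higher and none lower (median difference 0.37). The antiapoptotic genes Bcl2a1a, Bcl2a1b and Bcl2a1d, NF-kB targets in many leukocytes, were at 9.67, 9.595 and 12.1 TPM against 0, 0.0813 and 0 TPM, 30.7, 47.5 and 56.3 TPM against 3.27, 2.29 and 3.903 TPM and 35.02, 35.02 and 31.8 TPM against 1.06, 1.44 and 1.27 TPM. They are near copies, so their sum is firmer than each value. Pmaip1, which encodes the proapoptotic NOXA, was at 14.9, 14.8 and 19.8 TPM against 1.603, 1.199 and 1.403 TPM (log2 difference 2.86 ± 0.20, adjusted p = 7.16e-06), and the proapoptotic Bak1 was at 5.71, 11.5 and 6.402 TPM against 1.44, 1.27 and 1.44 TPM (log2 difference 1.84 ± 0.25, adjusted p = 0.000409). Higher members thus included both kinds. Of 37 cell cycle genes 13 were higher and 2 lower (median difference 0.70). Ccnd2, a cyclin of the first growth phase, was at 10.8, 15.4 and 11.4 TPM against 1.82, 1.25 and 0.141 TPM (log2 difference 2.79 ± 0.34, adjusted p = 0.000188), and Cdkn1a, the p21 inhibitor of the cycle, at 19.4, 14.9 and 17.6 TPM against 6.28, 6.16 and 6.25 TPM (log2 difference 1.33 ± 0.17, adjusted p = 0.000242). The inhibitor and the cyclin rose together. Birc5, survivin, which cells make in mitosis, was at 2.63, 2.92 and 2.58 TPM against 0.178, 0.521 and 0.78 TPM (log2 difference 1.33 ± 0.24, adjusted p = 0.00237). Mki67 and Top2a, also markers of dividing cells, were higher as well, at 4.82, 7.72 and 7.91 TPM against 1.07, 1.37 and 2.42 TPM and 6.33, 8.46 and 11.9 TPM against 1.36, 1.73 and 2.03 TPM, as were Cenpf, Tpx2, Ube2c, Ccna2 and Nusap1.

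**Figure D5:**
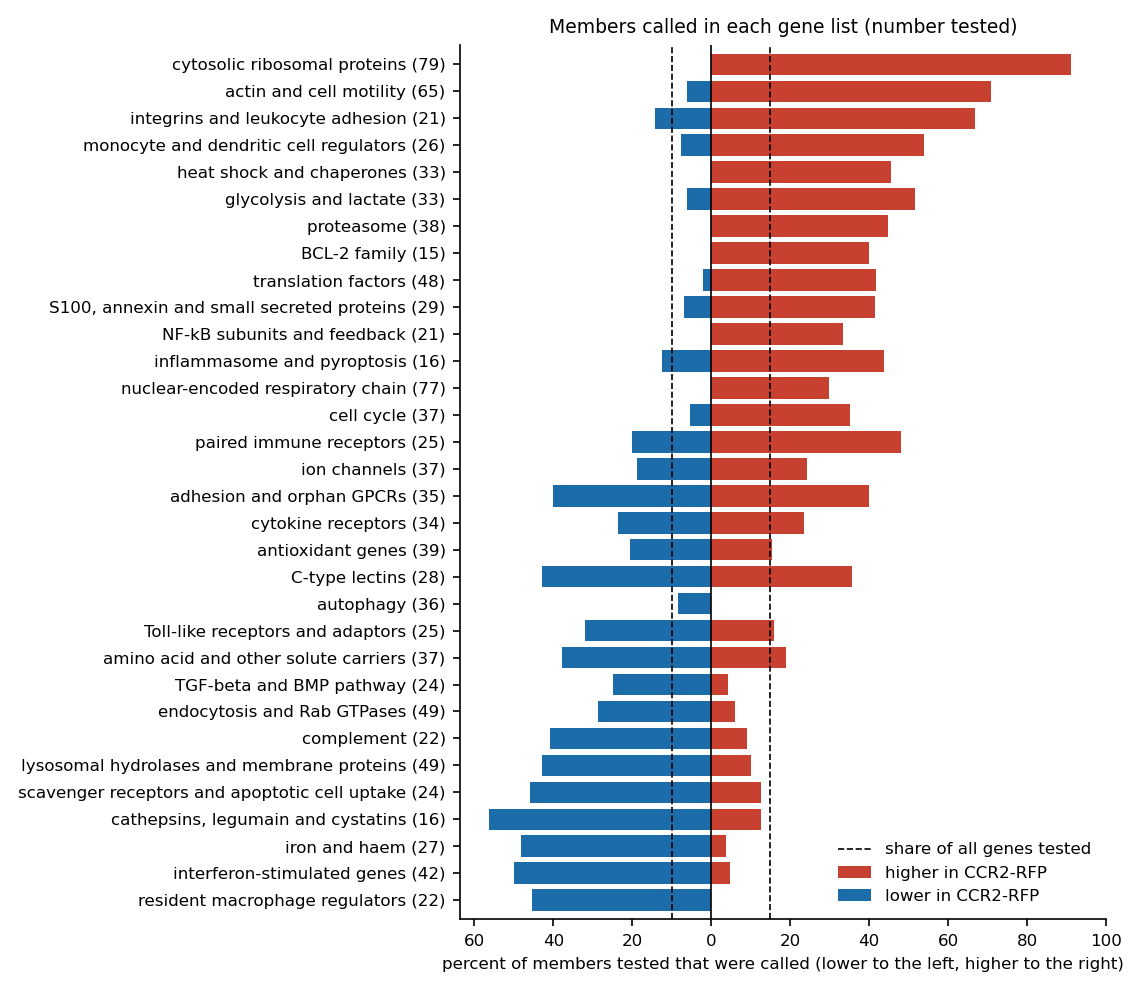
Percent of the tested members of 32 gene lists that were called, higher in CCR2-RFP cells to the right and lower to the left, with the number tested in brackets and dashed lines at the shares over all genes (14.9% higher, 9.88% lower). Ribosomal protein genes (72 of 79) and actin genes (46 of 65) reach furthest to the right, and resident macrophage regulators (10 of 22), cathepsins (9 of 16) and interferon-stimulated genes (21 of 42) are among those furthest to the left.

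The CX3CR1-GFP libraries give a reference for which differences mark CCR2-RFP cells among the MHC class II-positive populations. That comparison shares the CCR2-RFP libraries, and 26.3% of genes tested were called in it. Maf was at 171, 185 and 146 TPM and Tcf4 at 69.01, 52.2 and 51.5 TPM in CX3CR1-GFP cells, where Id2 was at 9.87, 13.7 and 7.38 TPM and Ezr at 2.66, 3.42 and 2.81 TPM. For these 4 genes CCR2-RFP cells differed from CX3CR1-GFP cells as well (log2 differences -2.40, -1.76, 2.74 and 2.23; adjusted p = 7.61e-06, 5.36e-05, 1.15e-05 and 1.54e-05). Other genes with lower levels in CCR2-RFP cells than in the double-negative population missed the threshold against CX3CR1-GFP cells. Vsig4 was at 3.21, 1.699 and 1.34 TPM there (log2 difference -0.77, adjusted p = 0.101), C4b at 41.1, 38.6 and 54.8 TPM (-0.58, 0.146) and Cd209b, a lectin of tissue macrophages, at 2.77, 6.602 and 3.15 TPM (-0.22, 0.694). On the inflammatory side, Nfkbia was at 105, 115 and 80.2 TPM and Cxcl2 at 75.8, 128 and 48.7 TPM in CX3CR1-GFP cells, without a call against CCR2-RFP cells (adjusted p = 0.101 and 0.227). Tnip3, in contrast, was at 0.543, 0.651 and 2.598 TPM (5.22, 3.9e-05).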

How the data were processed

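RNA was measured in 9 libraries of sorted mouse phagocytes, 6 of which are compared here. TPM per gene symbol were deposited by the authors, who used bcl2fastq 2.18, cutadapt 1.8.3, Salmon 0.11.3 and mm10 per the submitters' processing notes. The annotation, the summing of transcripts to genes and the strand were not given in the sources used here. Populations were taken from the column headings, which match title and source name. The table lists 28764 symbols.

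From the deposited TPM, log2(TPM + 1) was computed, and genes at 1 TPM or more in at least 3 of 9 libraries were kept. A mean per population was fitted over all 9 libraries with limma 3.58.1 in R 4.3.3 (lmFit, eBayes with trend), with a 2-sided test and p adjusted by Benjamini and Hochberg over 10136 genes. Calls are adjusted p values under 0.05. The script was tested on simulated data. With 3 libraries a group and no counts, the number of libraries limits the precision. The design text states 3 mice, so the sort labels were read as animals shared by the populations, which no label states outright. Deviations from the population means correlated at 0.056, 0.099 and 0.031 within a sort and at -0.072 to 0.016 across sorts. A fit with the sort as a block was therefore run beside the main one.

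The members and gene lists were chosen with earlier results of these data known. The rule names the 15 largest differences in each direction (among called genes that reach 10 TPM and whose libraries do not overlap, without P2, gate, predicted and ribosomal protein genes) and up to 4 called members per list by smallest p. Named after their values were seen were Abcg1, Axl, Bak1, Bcl11a, Ccl7, Ccl9, Cd180, Csf2ra, Csf2rb, Cybb, Cyld, Fos, Gzma, H2-M3, Hif1a, Hmgcs1, Ifi209, Ifit1, Ikbkb, Il10, Il1a, Il7r, Irf7, Irf8, Isg15, Itga4, Itga9, Jak3, Mertk, Mfsd7b, Mki67, Ncr1, Nfkb1, Nkg7, Pdgfb, Pfkfb3, Psap, Ptger4, Rel, Rela, Retnla, Runx3, Ryr1, S100a10, Slfn5, Spi1, Tfrc, Timd4, Tnf, Top2a, Tpsb2, Trem2, Zbtb46 and Zeb2. A few genes that the rule names are not reported here. Alternatives were pseudocounts of 0.1 and 5, no filter or one at 5 TPM, 3 other scalings, no trend, a fold change of at least 2, only the 6 libraries, only sorts 2A and 2B, the sort block and each library left out.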

Additional observations from a re-analysis of the deposited data

How the results depend on the processing

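The 1512 higher and 1001 lower genes became 845 and 618 when a difference of at least 2-fold was also asked for, and 817 and 540 with only the libraries of sorts 2A and 2B. Leaving out single libraries gave 988 to 1227 higher and 749 to 817 lower genes, the lowest higher count, 988, without CCR2-RFP 2B. The balance of calls turned in 2 alternatives: quantile normalization gave 1107 higher and 1136 lower, and TPM rescaled without Siglece, mitochondrial and ribosomal protein genes gave 984 higher and 1258 lower. With the sort label as a replicate block, 1468 genes were higher and 960 lower. Among genes named in the text, the block ended the calls of those with a blocked value beside them and brought Lyve1 and Cd68 under the threshold; it changed no other call of a gene named there. Of the genes that the rule named but the text leaves out, Sdf2l1 alone, of endoplasmic reticulum folding, lost its call (adjusted p = 0.0501 with the block, against 0.03).

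Of 248 genes that the rule named, 240 were called, and 20 of these lost the call in at least 1 of 17 alternatives, 19 of them with sorts 2A and 2B only. Asking also for a 2-fold difference would drop 22. Of 59 counts of 5 or more members of a list, 26 fell by over 1.5 times with sorts 2A and 2B only. Counts of 3 or fewer hung on single libraries. The lower count became 5 for nuclear receptors without double-negative 2A, 0 for small secreted proteins without double-negative 2B and 1 for them without CCR2-RFP 1, CCR2-RFP 2A or double-negative 1. It became 1 for cell cycle genes without CCR2-RFP 1, CCR2-RFP 2A, double-negative 1 or double-negative 2B, 1 for glycolysis without any 1 CCR2-RFP library, and 1 for pentose phosphate and 0 for JAK-STAT genes without any 1 library. It became 0 for retinoid genes without any library but double-negative 1, 2 for Notch without double-negative 2B, 2 for dendritic cell markers without CCR2-RFP 2A, and 1, from 0, for respiratory chain genes without CCR2-RFP 1, for endoplasmic reticulum folding without CCR2-RFP 2A or double-negative 1 and for fibroblast markers without double-negative 2A. The higher count became 2 for TGF-beta genes without double-negative 1, 1 for Notch without CCR2-RFP 2B or any 1 double-negative library and 1, from 0, for resident macrophage regulators without CCR2-RFP 2B. It became 0 for Siglecs and 1 for T and NK cell markers without any 1 CCR2-RFP library. There Siglecg and Klrb1c no longer passed the filter and were not tested, so these falls do not show a difference that hangs on a library. Median-of-ratios scaling and rescaling each brought 1 lower BCL-2 gene, and rescaling 2 lower JAK-STAT genes. A further 18, among them Aldh1a2, Gpr35 and Slc2a6, were not tested when any CCR2-RFP library was left out, since they reach 1 TPM in those libraries alone. Depth is unknown, so levels below 1 TPM could not be given a counting error.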

Other observations

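Smaller groups held further differences. Of 15 guidance cues and receptors tested, 2 were higher and 6 lower in CCR2-RFP cells (1 higher after rescaling, and without CCR2-RFP 1, double-negative 1 or double-negative 2A). Nrp1, the co-receptor of semaphorins and VEGF, was at 37.1, 31 and 44.7 TPM against 158, 164 and 185 TPM (log2 difference -2.15 ± 0.17, adjusted p = 1.15e-05), and Sema6d, a membrane semaphorin, at 2.08, 1.16 and 1.54 TPM against 16.4, 12.6 and 8.86 TPM (log2 difference -2.37 ± 0.27, adjusted p = 0.000131). Plxnd1, a semaphorin receptor, was higher at 35.2, 32.8 and 35.95 TPM against 10.3, 9.75 and 5.93 TPM (log2 difference 1.92 ± 0.20, adjusted p = 6.15e-05). Of 37 amino acid and other solute carriers 7 were higher and 14 lower, with the organic anion carrier Slco2b1 at 3.302, 2.08 and 2.92 TPM against 25.5, 26.9 and 22.3 TPM (log2 difference -2.79 ± 0.17, adjusted p = 3.39e-06) and the glutamine carrier Slc38a1 at 9.66, 11.2 and 11.4 TPM against 1.48, 1.49 and 2.301 TPM (log2 difference 2.1 ± 0.18, adjusted p = 2.28e-05).

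Of 17 Notch pathway genes 2 were higher and 1 lower, and 0 were higher and 2 lower under the other scalings. Maml2, a coactivator of Notch, was the lower member, at 0.974, 1.41 and 1.04 TPM against 8.06, 7.73 and 6.34 TPM (log2 difference -1.97 ± 0.18, adjusted p = 2.61e-05). Of 37 ion channel genes 9 were higher and 7 lower, with the higher count at 4 when CCR2-RFP 1 or 2A was left out and 5 when CCR2-RFP 2B, double-negative 1 or double-negative 2B was. Kcnn4 and Kcnq1, potassium channels, were at 13.4, 9.11 and 11.4 TPM against 0.248, 0.164 and 0.715 TPM (log2 difference 3.17 ± 0.26, adjusted p = 1.55e-05) and 15.04, 7.56 and 10.4 TPM against 0.379, 0.363 and 0.07796 TPM (log2 difference 3.2 ± 0.25, adjusted p = 1.19e-05). Ryr1, the calcium release channel of skeletal muscle, was at 17.8, 26.6 and 17.5 TPM against 2.23, 2.54 and 2.77 TPM (log2 difference 2.6 ± 0.49, adjusted p = 0.00288). Muscle marker sums in the CCR2-RFP libraries were 49.7, 1086 and 45.9 TPM, and the part of muscle mRNA in this difference was not tested. MHC class I presentation genes gave 4 higher and 3 lower of 21 (5 lower after quantile normalization), with B2m at 591, 622 and 629 TPM against 899.7, 885 and 1055 TPM (log2 difference -0.62 ± 0.14, adjusted p = 0.00713). The 4 higher were 1 under each of the other scalings, 2 when CCR2-RFP 2A was left out, and 1 when CCR2-RFP 2B, double-negative 1 or double-negative 2A was left out. H2-M3 lost its call when sorts were blocked (adjusted p = 0.0341, 0.0589 with the block).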
